A study of Mus musculus with 5 samples.

Results

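The 78 genes described here carry the names of mitochondrial ribosomal proteins. They are the listed symbols made of Mrpl or Mrps and a number, 78 of 19726 symbols, and were chosen by name alone. Mrpl marks the large subunit of the mitochondrial ribosome (49 genes) and Mrps the small subunit (29 genes). Subunits are taken from these names throughout, though Mrps18a and Mrps30 sit in the large subunit and Mrps36 belongs to another complex (below). No pseudogene matched. All 78 are annotated as protein coding, they lie on 17 chromosomes, and none was listed at 0 in any library.

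Mitochondria keep a ribosome of their own that translates the few proteins encoded by mitochondrial DNA, all of them subunits of the oxidative phosphorylation complexes. Its RNAs come from mitochondrial DNA, while its proteins are encoded in the nucleus, made on cytosolic ribosomes and imported. Some have counterparts in bacterial ribosomes and others are found only in mitochondria. Activated T cells are known to build up mitochondria and mitochondrial translation as they leave the resting state.

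The study compared cells labelled CD4+ T cells from the spleen (3 libraries, replicates 1 to 3) with cells given the same label from tumors of MC38, a mouse colon carcinoma line (2 libraries, replicates 2 and 3). All came from wild-type mice of the strain written C57/Bl6j, aged 7 weeks, and no treatment is named. Total RNA depleted of ribosomal RNA was sequenced. The sources used here do not say how the cells were sorted, nor whether the spleens came from mice that bore tumors. Separate mice are not stated for the replicates either, and the p-values below therefore rest on a spread between libraries that may be technical.

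Values are in TPM, the share of a library's transcripts that come from a gene, corrected for transcript length and scaled to a fixed total. The listed genes add up to 26.9% to 36.0% of the full TPM scale in the spleen and to 59.6% and 56.9% in tumor replicates 2 and 3, which moves listed genes together. The read depth is unknown, so no counting error is given. The 13 markers of T cell identity that were listed summed to 1015 to 1348 TPM in the spleen and to 321 and 251 TPM in the tumor, and all 13 fell. The 16 macrophage and monocyte markers summed to 53.9 to 60.2 TPM in the spleen and to 5281 and 5703 TPM in the tumor, and all 16 rose, so in the tumor libraries they exceeded the T cell list despite the label. Neutrophil markers summed to 2.78 to 3.76 TPM in the spleen and 72.7 and 69.1 TPM in the tumor, and dendritic cell markers to 11.1 to 16.1 TPM and 101 and 150 TPM. Most of each tumor sum was from a lone gene, Csf3r (53.1 and 57.8 TPM) and Itgax (87.8 and 136 TPM). S100a9, Mmp8 and Xcr1 rose too, while S100a8, Zbtb46, Clec9a and Siglech were not called. Ly6g, Retnlg and Flt3 were too low to test. Epithelial and MC38 markers stayed at 2.21 to 3.62 TPM in each of the 5 libraries. The part of other cells in the differences below was not tested, and in bulk samples fewer cells of a type and less RNA per cell cannot be told apart.

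The promoters of 3 large subunit genes are shown because their genes mark the range of that subunit: Mrpl17 and Mrpl52 had the highest log2 changes, and Mrpl45 had the lowest. Each is the 120 bases upstream of the first annotated exon, 5′ to 3′ on the strand of the gene, from RefSeq (GRCm38.p6). Capitals mark matches on either strand to the palindromic NRF1 motif or to CCGGAAG, a motif of GABP and other ETS factors. Both factors are known activators of nuclear genes for mitochondrial proteins. The Mrpl17 stretch lies at chr7:105811100-105811219 (minus strand), that of Mrpl52 at chr14:54426789-54426908 (plus strand) and that of Mrpl45 at chr11:97315596-97315715 (plus strand).
Mrpl17: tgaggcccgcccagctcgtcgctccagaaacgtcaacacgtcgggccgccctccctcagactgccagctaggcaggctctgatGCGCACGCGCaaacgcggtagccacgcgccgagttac
Mrpl52: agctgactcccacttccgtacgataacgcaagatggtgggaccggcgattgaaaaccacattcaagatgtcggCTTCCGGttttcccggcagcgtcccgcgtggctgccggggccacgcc
Mrpl45: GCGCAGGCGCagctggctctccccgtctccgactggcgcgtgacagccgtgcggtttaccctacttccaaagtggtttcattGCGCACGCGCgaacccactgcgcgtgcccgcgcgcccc
The stretches drawn for Mrpl32 (74 bases), Mrps21 (79 bases) and Mrps5 (46 bases) are not shown. They were shorter and held no such match. Further matches near the start lay outside the stretches of all these genes but Mrps5. No order of the changes is read from the matches.

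Summed over the 49 large subunit genes, the level was 666, 734 and 656 TPM in spleen replicates 1, 2 and 3 and 976 and 1114 TPM in tumor replicates 2 and 3. Over the 29 small subunit genes it was 265, 340 and 303 TPM in the spleen and 440 and 491 TPM in the tumor. Both tumor libraries lay above all spleen libraries for both subunits. The median gene moved likewise: 7.97, 9.63 and 8.01 TPM in the spleen against 14.7 and 15.6 TPM in the tumor for the large subunit, and 7.78, 7.59 and 8.29 TPM against 11.1 and 13.4 TPM for the small. Set against the listed total, the direction was the opposite, as the 78 genes took 2.99 to 3.46 per mille of it in the spleen and 2.37 and 2.82 per mille in the tumor.

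Most of these genes are expressed at low levels, and olfactory receptor genes, which T cells are not known to use, give a background. The level under which 95% of 1134 such genes lay was 16.2, 10.6 and 13.8 TPM in spleen replicates 1, 2 and 3 and 7.59 and 10.7 TPM in tumor replicates 2 and 3. Above it were 12, 35 and 21 of the 78 genes in the spleen libraries and 59 and 50 in the tumor libraries. These counts depend on the background level, which differs between libraries, as well as on the genes. Spleen replicate 2 and tumor replicate 3 had nearly the same level, with 35 and 50 genes above it. The share of all genes above this level is not given. In all 5 libraries 11 genes passed it, and 19 passed it in none, Mrpl12 and Mrpl14 among the latter.

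**Figure D1:**
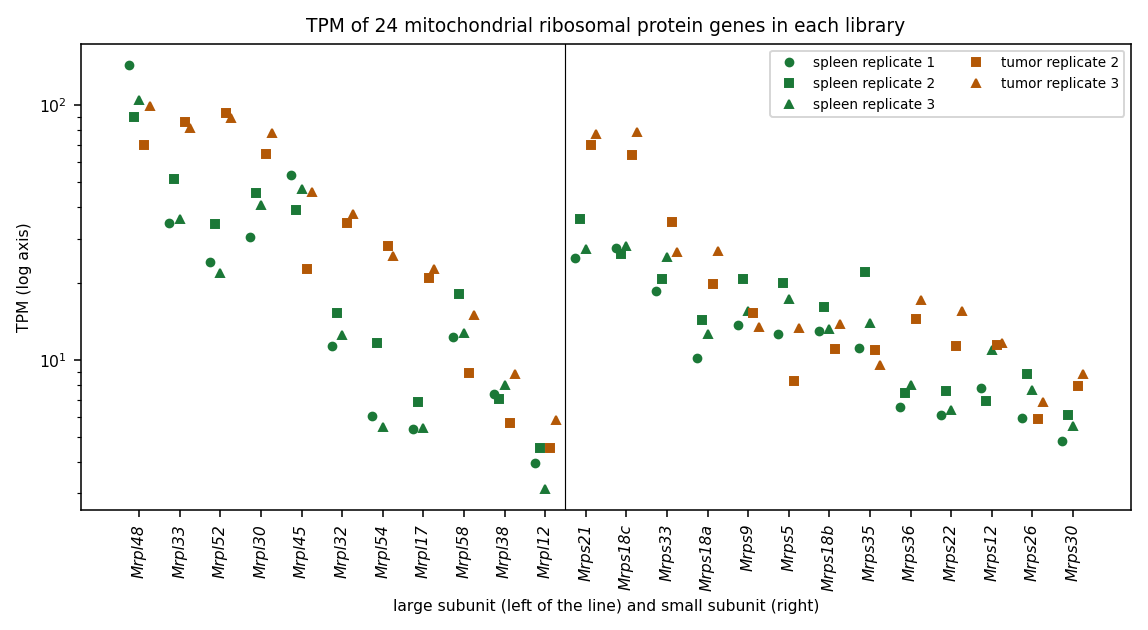
Level of the 24 named genes in each library in TPM (log axis), 11 of the large subunit left of the line and 13 of the small subunit right of it, in order of their mean; green points are the 3 spleen and orange points the 2 tumor libraries. Orange points lie above green ones for genes such as Mrpl52 and Mrps18c and among or below them for Mrpl48, Mrpl45, Mrps5 and Mrps35.

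Each gene was tested with limma on log2(TPM + 1) over the 12979 genes whose mean reached 1 TPM, a filter that all 78 passed, and called at an adjusted p below 0.05. In the tumor 31 of the 49 large subunit genes rose and 0 fell, leaving 18 without a call, and their log2 changes ran from -0.50 to 1.75 around a median of 0.58. In the small subunit 15 of 29 rose and 2 fell, leaving 12 without a call, and the changes ran from -0.60 to 1.35 around a median of 0.49. Mrps18a, Mrps30 and Mrps36, which are not small subunit proteins, are among these 15 rises. For comparison, 40.9% of all genes tested rose and 18.1% fell, and their median was 0.23. The standard error of a member's change was 0.21 to 0.24 on the log2 scale. Both tumor libraries exceeded all 3 spleen libraries for 36 large and 19 small subunit genes, 55 of 78, while this held for 46.6% of all genes tested. Both lay below all spleen libraries for 1 member, Mrps35, and for 23.8% of all genes. The number of rises depended on the libraries used: without spleen replicate 3 it was 23 in the large and 9 in the small subunit. The share of all genes that rose is not given for fits with a library left out. A lower count there may therefore hold for all genes alike.

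**Figure D2:**
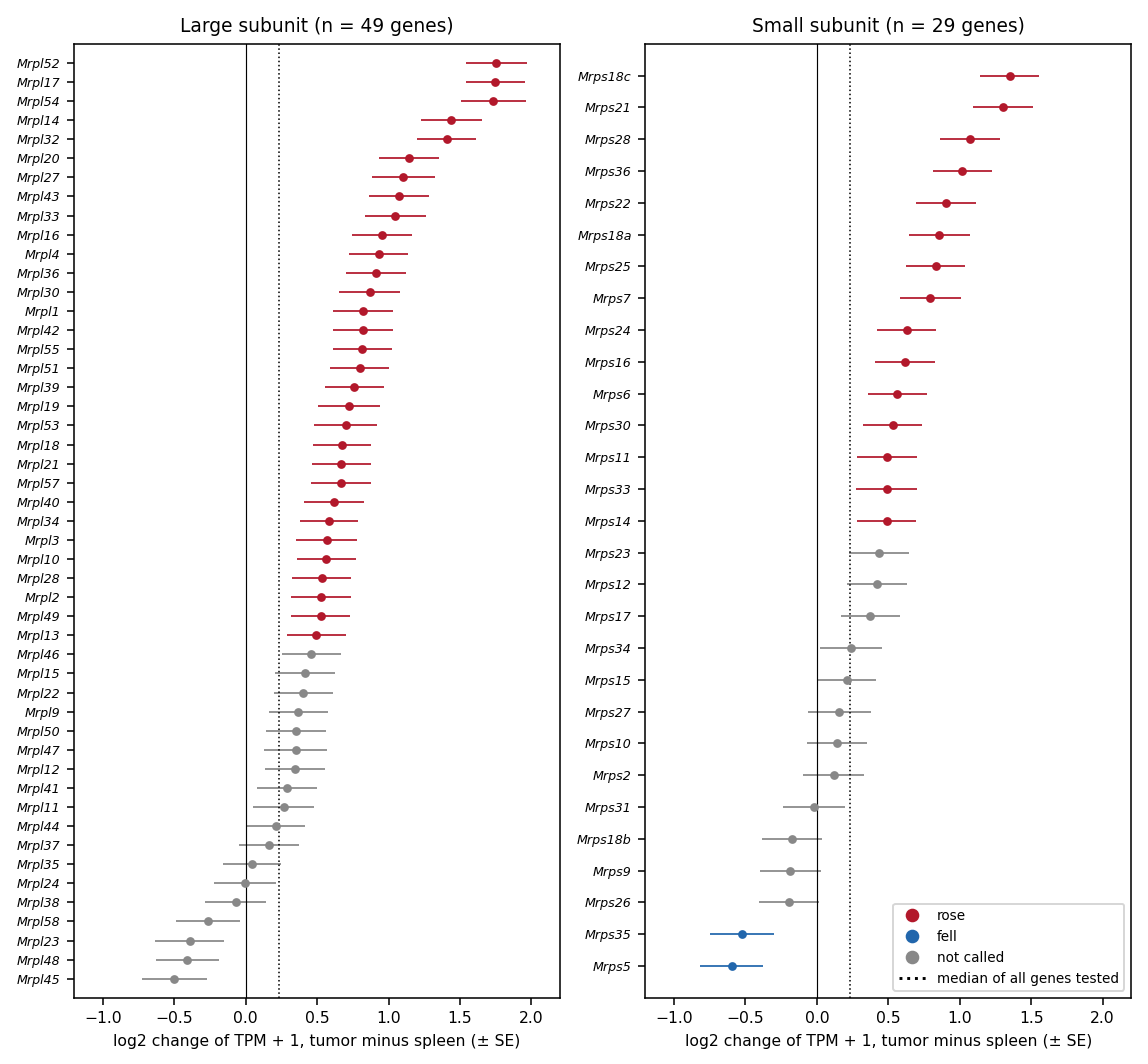
The log2 change of each of the 78 genes, tumor minus spleen, on the log2(TPM + 1) scale, ordered within each subunit, with bars of 1 standard error and colour for the call. Values run from -0.60 for Mrps5 to 1.75 for Mrpl52 and Mrpl17, and the dotted line is the median of all genes tested, 0.23.

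The direction of these counts depends on how libraries are made comparable. With all libraries set to equal listed totals, 5 large subunit genes rose and 13 fell, and 1 small subunit gene rose and 13 fell, against 20.4% of all genes that rose and 51.4% that fell. The medians were then -0.25 for the large subunit, -0.38 for the small and -0.56 for all genes. Scaled on the T cell identity genes, all 78 rose, as did 95.7% of all genes, while 0.779% fell, and the medians were 2.65, 2.46 and 2.08. With median ratios, 37.3% of all genes rose and 21.1% fell, beside 25 and 10 rises and 1 and 2 falls in the large and small subunit. With equal upper quartiles 23.2% rose and 49.3% fell, beside 6 and 3 rises and 11 and 10 falls. With the 20 most abundant genes left out 19.8% rose and 56.9% fell, beside 5 and 2 rises and 23 and 16 falls. The median of the 78 genes lay 0.27 to 0.48 above the median of all genes as deposited and under the 6 other scalings run. Each scaling multiplies a library by a constant, which moves all genes nearly alike. The likeness of these gaps therefore follows from the method and is no separate support. As deposited, 59 of the 78 genes lay above the median of all genes, 40 of the large and 19 of the small subunit.

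**Figure D3:**
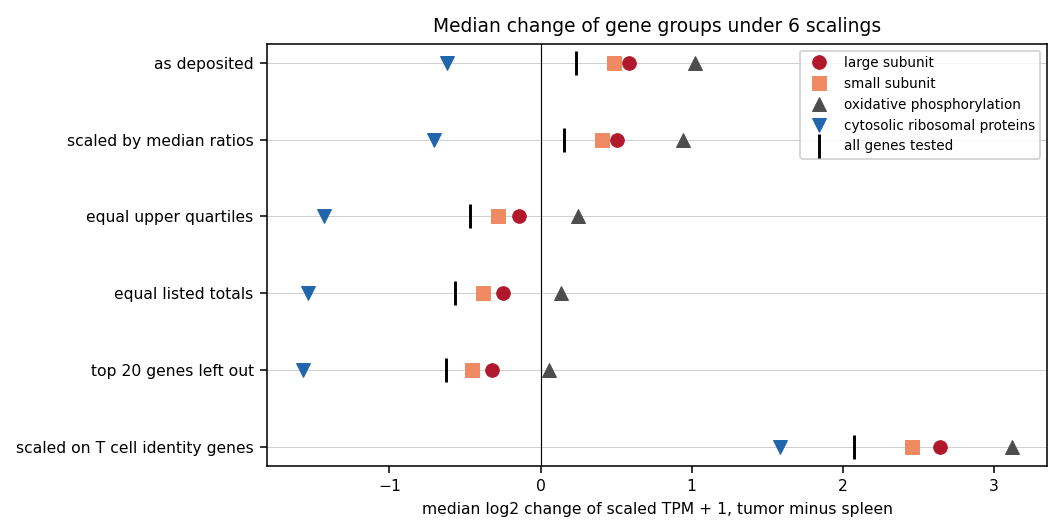
Median log2 change, tumor minus spleen, of the large subunit, the small subunit, nuclear oxidative phosphorylation genes, cytosolic ribosomal protein genes and all genes tested, as deposited and under 5 other scalings. The level of each median shifts with the scaling, from -0.32 for the large subunit with the 20 most abundant genes left out to 2.65 on the T cell genes. Both subunits stay above all genes, as each scaling moves all genes of a library nearly alike.

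The genes with the highest log2 changes were in the large subunit. Mrpl52, a protein found only in mitochondria (GRCm38 chr14:54426909-54429756, plus strand), had 24.3, 34.3 and 22.1 TPM in the spleen and 93.6 and 89.2 TPM in the tumor. The tumor libraries were well apart from the spleen, with means of 26.9 ± 6.54 TPM (SD, n = 3) and 91.4 ± 3.10 TPM (SD, n = 2), 3.40 times as high. Its log2 change was 1.75 ± 0.21 (SE), with an adjusted p of 8.1e-10 in limma. Mrpl17, the counterpart of bacterial L17 (chr7:105803206-105811099, minus strand), had 5.38, 6.84 and 5.42 TPM in the spleen and 21.1 and 22.9 TPM in the tumor. On the log2(TPM + 1) scale this was also a change of 1.75 ± 0.21 (limma, adjusted p = 3.6e-10). The tumor mean was 3.74 times the spleen mean, more than for Mrpl52, as adding 1 TPM shrinks the changes of low genes.

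Mrpl54, another protein without a bacterial counterpart (chr10:81264713-81266934, minus strand), had 6.06, 11.7 and 5.46 TPM in the spleen and 27.9 and 25.5 TPM in the tumor. Spleen replicate 2 was high for this gene but still under both tumor libraries, and the log2 change was 1.73 ± 0.23 (limma, adjusted p = 5.6e-09). Mrpl32, the counterpart of bacterial L32 (chr13:14608184-14613165, minus strand), went from 11.3, 15.2 and 12.5 TPM to 34.5 and 37.5 TPM. The change was 1.41 ± 0.21 on the log2 scale (limma, adjusted p = 9.8e-08), and the groups did not overlap.

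In the small subunit Mrps18c and Mrps21 rose most. Mrps18c, one of 3 relatives of bacterial S18 (chr5:100798627-100804471, plus strand), had 27.6, 26.2 and 28.1 TPM in the spleen and 64.1 and 78.9 TPM in the tumor, a log2 change of 1.35 ± 0.21 (limma, adjusted p = 2.0e-07). Its 3 spleen libraries were close to each other and both tumor libraries lay far above them. Mrps21, the counterpart of bacterial S21 (chr3:95862634-95871519, minus strand), had 25.2, 35.7 and 27.3 TPM in the spleen and 69.8 and 76.9 TPM in the tumor. Its log2 change was 1.30 ± 0.21 (limma, adjusted p = 6.1e-07). Mrps36, which carries a ribosomal name but is now known as a part of the α-ketoglutarate dehydrogenase complex, rose from 6.56, 7.41 and 8.01 TPM to 14.6 and 17.2 TPM (log2 change 1.02). Mrps22, a mitochondria-specific protein, rose by 0.90 on the log2 scale and had 6.11 to 7.59 TPM in the spleen and 11.4 and 15.5 TPM in the tumor.

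Of the 78 genes, 6 rose as deposited, under each of the 6 other scalings and in each of the other settings in which they were tested: Mrpl14, Mrpl17, Mrpl32, Mrpl52, Mrpl54 and Mrps21. They were picked out after their values were seen. Mrpl14, the counterpart of bacterial L14, was the lowest of them, with 1.24, 1.67 and 1.40 TPM in the spleen and 6.06 and 5.14 TPM in the tumor. Its log2 change was 1.44, and its tumor mean was 3.90 times its spleen mean. It lay under the olfactory background in all 5 libraries, and a filter at 5 TPM leaves it untested. With equal totals the changes of Mrpl52, Mrpl17, Mrpl54, Mrpl32 and Mrps21 were 0.84, 0.89, 0.87, 0.51 and 0.39 on the log2 scale. Mrps18c, at 0.44, was not called there.

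The other genes with a log2 change of at least 1 were Mrpl20 (1.14), Mrpl27 (1.10), Mrps28 (1.07), Mrpl43 (1.07) and Mrpl33 (1.05), so 13 of 78 reached it. Mrpl20 and Mrpl27 are counterparts of bacterial L20 and L27. Mrpl20 went from 13.0, 15.9 and 15.1 TPM to 29.8 and 37.5 TPM, and Mrpl27 from 8.70, 15.5 and 11.6 TPM to 26.6 and 25.8 TPM. Mrps28 was low, at 2.51 to 3.27 TPM in the spleen and 7.25 and 7.48 TPM in the tumor. The remaining 33 genes that rose had log2 changes of 0.49 (Mrps14) to 0.95 (Mrpl16), and for each the tumor libraries were above the spleen libraries.

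The most abundant large subunit genes behaved unlike each other. Mrpl33, the counterpart of bacterial L33, had 34.4, 51.4 and 35.9 TPM in the spleen and 86.0 and 81.2 TPM in the tumor, a called rise (log2 change 1.05 ± 0.21, limma adjusted p = 3.7e-05). Mrpl30, the counterpart of bacterial L30, rose from 30.3, 45.4 and 40.7 TPM to 64.4 and 77.9 TPM (0.87 ± 0.21, limma adjusted p = 0.00049), but its change was -0.05 with equal totals. Mrpl48, a mitochondria-specific protein (chr7:100545751-100608301, minus strand), had 144, 90.3 and 105 TPM in the spleen and 70.1 and 99.0 TPM in the tumor. These groups overlapped and the change was not called (-0.41 ± 0.22, limma adjusted p = 0.10), though without spleen replicate 2 it was -0.55 with an adjusted p of 0.019. Mrpl48 alone made up 21.6%, 12.3% and 16.0% of the large subunit sum in the spleen and 7.18% and 8.89% in the tumor.

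Mrpl24, the counterpart of bacterial L24, had similar levels in the tissues, with 29.5, 44.2 and 37.2 TPM in the spleen and 32.8 and 40.3 TPM in the tumor. Mrpl45, a protein by which the ribosome is held at the inner membrane (chr11:97315716-97329920, plus strand), had 53.4, 39.0 and 47.1 TPM in the spleen and 22.7 and 45.9 TPM in the tumor. The 2 tumor libraries disagreed for this gene: the change was -0.50 ± 0.23 (limma, adjusted p = 0.057), and without tumor replicate 3 it was -0.99 and passed the test (adjusted p = 0.0051). Mrpl58, a peptidyl-tRNA hydrolase that is built into the large subunit, had 12.3, 18.1 and 12.7 TPM in the spleen and 8.92 and 15.1 TPM in the tumor, a log2 change of -0.26 that was not called. Mrpl38 (-0.07) was not called either. Mrpl12, the counterpart of the bacterial stalk protein L7/L12, had 3.94, 4.54 and 3.12 TPM in the spleen and 4.51 and 5.85 TPM in the tumor, groups that overlapped (0.35, not called).

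The 2 genes that fell were both in the small subunit. Mrps5, the counterpart of bacterial S5 (chr2:127587222-127606829, plus strand), had 12.6, 20.1 and 17.3 TPM in the spleen and 8.25 and 13.4 TPM in the tumor. Tumor replicate 3 lay above spleen replicate 1, so the groups overlapped, and the log2 change was -0.60 ± 0.22 (limma, adjusted p = 0.019). Mrps35, a mitochondria-specific protein (chr6:147042764-147073991, plus strand), had 11.1, 22.1 and 14.0 TPM in the spleen and 11.0 and 9.55 TPM in the tumor, with a change of -0.53 ± 0.22 (limma, adjusted p = 0.040). Spleen replicate 2 was far above the other libraries for this gene. Without spleen replicate 2 neither call held: the change of Mrps5 was -0.46 (adjusted p = 0.070) and that of Mrps35 -0.27 (adjusted p = 0.19). Without spleen replicate 3 they were -0.56 (adjusted p = 0.080) and -0.58 (adjusted p = 0.069), and without tumor replicate 2 they were -0.28 (adjusted p = 0.48) and -0.62 (adjusted p = 0.084). Without tumor replicate 3 the call of Mrps35 was also lost (-0.44, adjusted p = 0.22). Without the filter on low values both calls were lost too, at an adjusted p of 0.052 for Mrps5 and 0.095 for Mrps35.

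The 3 mammalian relatives of bacterial S18 had different values. Mrps18b (chr17:35910379-35916389, minus strand) and Mrps18c sit in the small subunit, while Mrps18a (chr17:46110986-46128910, plus strand) sits in the large subunit despite its name. Mrps18a rose from 10.2, 14.4 and 12.7 TPM to 19.9 and 26.9 TPM (0.86 ± 0.21, limma adjusted p = 0.00056), a call lost without tumor replicate 3 (0.65, adjusted p = 0.061). Mrps18b had 13.0, 16.1 and 13.3 TPM in the spleen and 11.1 and 13.8 TPM in the tumor, with overlapping groups (-0.17, limma adjusted p = 0.48). With libraries scaled on the 78 genes themselves, Mrps18c was called higher in the tumor (0.82), Mrps18b lower (-0.67) and Mrps18a not called (0.35). The difference between the relatives was not tested directly. Mrps30, also a large subunit protein despite its name, had 4.82, 6.08 and 5.53 TPM in the spleen and 7.88 and 8.79 TPM in the tumor. Its rise was narrow (0.53, limma adjusted p = 0.025) and was lost when any library but spleen replicate 2 was left out. The adjusted p was then 0.088 without spleen replicate 1, 0.084 without spleen replicate 3, 0.076 without tumor replicate 2 and 0.17 without tumor replicate 3 (limma).

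Among the other small subunit genes fixed for description, Mrps12, the counterpart of the bacterial decoding-centre protein S12, had 7.78, 6.90 and 10.9 TPM in the spleen and 11.5 and 11.7 TPM in the tumor and was not called (0.42, limma adjusted p = 0.084). Mrps33 was among the most abundant, with 18.7, 20.8 and 25.4 TPM in the spleen and 35.0 and 26.7 TPM in the tumor. Its rise was called (0.49, limma adjusted p = 0.044) but also depended on each library except spleen replicate 2. The adjusted p was 0.11 without spleen replicate 1, 0.063 without spleen replicate 3, 0.46 without tumor replicate 2 and 0.058 without tumor replicate 3 (limma). Mrps9, the counterpart of bacterial S9, and Mrps26, a mitochondria-specific protein, had changes of -0.18 and -0.19 that were not called.

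Scaling each library on the geometric mean of TPM + 1 over the 78 genes shows the unequal change within the family. It centres the family on its own mean change, so members that changed less than the family turn negative by construction. On that scale 18 genes rose (13 large, 5 small) and 12 fell (6 large, 6 small), beside 28.8% of all genes that rose and 37.9% that fell. Called lower were Mrpl24, Mrpl35, Mrpl38, Mrpl45, Mrpl48 and Mrpl58 of the large subunit and Mrps5, Mrps9, Mrps18b, Mrps26, Mrps31 and Mrps35 of the small. Mrps5 (-1.10), Mrpl45 (-1.03), Mrps35 (-1.02) and Mrpl48 (-0.95) were the lowest. Mrpl17 (1.25), Mrpl54 (1.23) and Mrpl52 (1.22) were the highest.

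The sum of the large subunit genes was 2.51, 2.16 and 2.17 times that of the small subunit genes in the spleen and 2.22 and 2.27 times in the tumor, so the groups overlapped. Leaving out Mrpl48 gave 1.97, 1.89 and 1.82 times in the spleen and 2.06 and 2.07 times in the tumor, so that both tumor libraries lay above all spleen libraries and the overlap rests on Mrpl48. These ratios compare sums of transcripts per length, and the excess of the large subunit goes with its larger number of genes, 49 against 29. Both sums follow the names, so that of the small subunit includes Mrps18a, Mrps30 and Mrps36.

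By descent, 45 of the genes have a counterpart in bacterial ribosomes and 30 were classed as having none, with Mrps18b, a diverged relative of bacterial S18, counted among the latter. Of those with a counterpart 29 rose and 1 fell, with a median log2 change of 0.57. Among those without one 14 rose and 1 fell (median 0.45). Of all genes tested 40.9% rose and 18.1% fell (median 0.23). The share that rose among genes without a counterpart was near this, and the share that fell was below it. Mrps18a, Mrps28 and Mrps36 were not classed, and all 3 rose. The difference between the classes was not tested.

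With the median coding transcript as the length, the shortest class of these genes had the highest median change. Of the 21 genes with a median coding transcript of up to 750 nt, 15 rose and none fell, with a median log2 change of 0.87. Of the 34 genes above that and up to 1500 nt 19 rose and none fell (median 0.51), and of the 23 longer genes 12 rose and 2 fell (median 0.49). Of all genes tested 40.9% rose and 18.1% fell, with a median of 0.23. Spearman's rho of change with length was -0.36 over the 78 genes, -0.34 over the large and -0.43 over the small subunit. Over 88 genes with symbols of cytosolic ribosomal proteins, a set described below, it was 0.18. It was -0.25 over 80 nuclear oxidative phosphorylation genes and -0.10 over 12964 genes tested. For the 78 genes, leaving out each library in turn gave -0.38 to -0.32, but with the shortest annotated transcript as the length it was -0.05. These are descriptions across genes, which share the same 5 libraries and are not independent replicates.

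**Figure D4:**
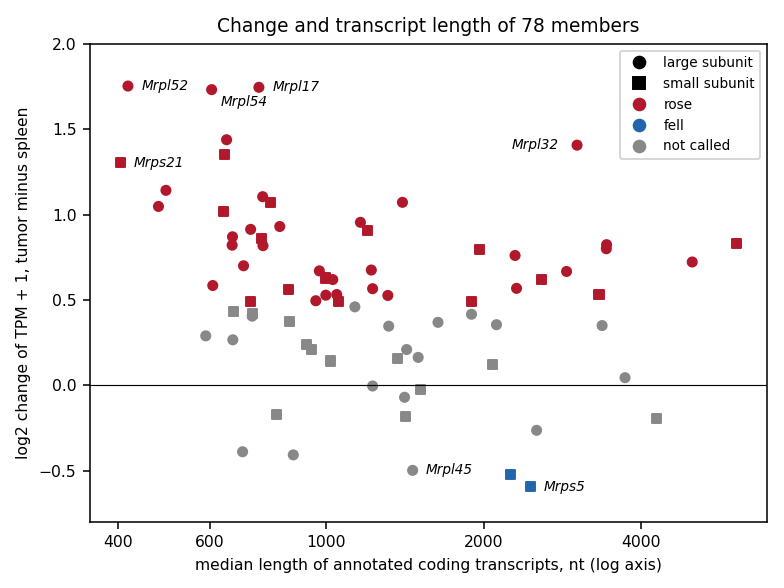
The log2 change of each of the 78 genes, tumor minus spleen, against the median length of its annotated coding transcripts in nt (log axis), with circles for the large and squares for the small subunit and colour for the call. Points under 750 nt reach the highest changes, and the 2 genes that fell, Mrps35 and Mrps5, lie above 1500 nt.

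The promoter motifs were counted in the RefSeq windows from 250 bases before to 50 bases after a start, on both strands, for the 69 members with an entry. CCGGAAG was present in 26 members (37.7%), beside 18.8% of 10339 tested genes and 8.86% of all 32851 windows. The NRF1 motif was present in 13 members (18.8%), beside 10.6% of tested genes and 4.60% of windows. AAGATGGC, a motif of the factor YY1, was present in 12 members (17.4%), beside 4.92% of tested genes and 2.75% of windows. A member can hold more than one of them: 43 held at least 1 and 8 at least 2 of the 3 motifs. Members with CCGGAAG had a median log2 change of 0.67, with 18 of 26 that rose, and the 43 without it had 0.49, with 23 that rose. For the NRF1 motif the medians were 0.67 with and 0.53 without, but 7 of 13 genes with it rose and 34 of 56 without it, a smaller share with the motif. For AAGATGGC the medians were 0.58 and 0.53, and 8 of 12 genes with it and 33 of 57 without it rose. General promoter motifs were not more frequent in members than in tested genes: CCAAT stood in 39.1% and 43.2%, GGGCGG in 49.3% and 63.4%, and TATAAA in 7.25% and 10.9%. These are matches of letters, and the differences were not tested.

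Many of the genes share their promoter region with a neighbour. A coding gene on the other strand starts within 1000 bp of 33 of the 78 members (42.3%), while this holds for 1943 of 12965 tested coding genes (15.0%). Members with such a neighbour had a median log2 change of 0.53 (20 rose, 1 fell) and the 45 without one 0.56 (26 rose, 1 fell). Mrpl46 and Mrps11 form the only pair in which both genes are members. Outside the family 28 neighbours were tested: 13 rose and 5 fell (median 0.42), shares near those of all genes tested, 40.9% and 18.1%. Mrpl54 lies beside Apba3, an adaptor protein gene, which changed by 1.40, and Mrpl36 beside Ndufs6, a subunit of respiratory complex I, which changed by 1.03. Mrps18c lies beside Helq, a DNA helicase gene, which fell by 0.86, and Mrpl48 beside Rab6a, a Golgi trafficking GTPase gene, which changed by 1.66. Of the 78 members 42 overlap another annotated gene (53.85%), beside 53.81% of tested coding genes, and 36 overlap one on the other strand. Among them are Mrpl48 with Rab6a, Mrpl33 with Rbks and Mrpl14 with Tmem63b, which rose by 1.05. The library kit keeps the strand, but the sources do not say whether the quantification used it, so the values of overlapping genes are uncertain.

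The other genes of the pathway are read against the 40.9% of all genes tested that rose and the 18.1% that fell. Of 5 tested mitoribosome proteins with other symbols 2 rose and 1 fell besides 2 not called, which is near those shares. Aurkaip1, a small subunit protein, rose from 10.9, 13.2 and 12.9 TPM to 33.7 and 35.0 TPM (log2 change 1.41), and Ptcd3, another small subunit protein, fell from 59.0, 83.5 and 66.8 TPM to 34.1 and 34.1 TPM (-1.0). Of 25 tested genes for assembly and RNA modification of the ribosome 3 rose and 3 fell (median -0.09), with Ddx28, an RNA helicase of large subunit assembly, at 1.22 and Mettl17, a methyltransferase-like factor of the small subunit, at -1.07. Of 15 mitochondrial translation factors and regulators 3 rose and 3 fell (median -0.22). Slirp, which binds and stabilises mitochondrial mRNA, rose from 13.3, 15.8 and 12.8 TPM to 76.2 and 83.0 TPM (2.43), and Guf1, a ribosome-bound GTPase, fell by 0.85 on the log2 scale.

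Of 16 genes of mitochondrial transcription and RNA processing 3 rose and 4 fell (median -0.18). Polrmt, the mitochondrial RNA polymerase, fell from 5.92, 4.49 and 6.13 TPM to 1.45 and 2.49 TPM (-1.15), and Pnpt1, a mitochondrial RNA exonuclease, rose by 1.14. Of 9 regulators of mitochondrial biogenesis 2 rose and 1 fell (median 0.36): Gabpb1, the partner subunit of the ETS factor named above, rose by 0.88 and Ppargc1b, a coactivator, fell by 0.92. Nrf1 (0.28), Gabpa (0.45) and Yy1 (0.36), which encode the factors named with the motifs, were not called. Of 22 mitochondrial protein import genes 16 rose and 1 fell (median 0.68), with Timm8b at 1.49 and Timm9, both chaperones of the space between the membranes, at -1.05. With equal totals, where 20.4% of all genes rose and 51.4% fell, falls also outnumbered rises in these lists: 3 against 1 for the proteins with other symbols, 20 against 1 for assembly, 12 against 1 for translation factors, 12 against 0 for transcription, 5 against 0 for the regulators and 6 against 2 for import.

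Set against 2 related gene groups, the 78 genes lay between them. Of 80 nuclear oxidative phosphorylation genes 61 rose and 2 fell (median log2 change 1.02), and of 88 cytosolic ribosomal protein genes 8 rose and 55 fell (median -0.62). The cytosolic group was taken by symbol, Rpl or Rps and a number. That pattern also fits some genes for other proteins, such as the Rps6k kinases, so the group is not purely ribosomal. The order of the 3 medians was the same under the 6 other scalings, which follows from their moving all genes of a library nearly alike. On T cell identity genes the cytosolic median was 1.59, above 0. In ratios within a library, which no scaling changes, the cytosolic ribosomal sum was 36.7, 40.4 and 38.9 times that of the 78 genes in the spleen and 16.0 and 15.6 times in the tumor. The oxidative phosphorylation sum was 2.44, 2.72 and 2.63 times that of the 78 genes in the spleen and 3.35 and 3.23 times in the tumor. For both ratios the tumor libraries lay apart from all spleen libraries.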

How the data were processed

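RNA from 3 spleen and 2 tumor libraries was analysed. The deposited values are TPM per gene symbol, 1 file a library. Per the submitters' processing notes, kallisto, DESeq2 and the build mm10 were used, and no version or role is stated. The sources used here do not say how transcripts were summed to genes or which genes were left out. The members and gene lists were chosen with earlier results of these data known.

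Values were tested as log2(TPM + 1) with limma 3.58.1 in R 4.3.3 over the 12979 genes whose mean reached 1 TPM. The model held tissue alone, eBayes used a trend, tests were two-sided, and p-values were adjusted by Benjamini and Hochberg over all genes tested (call at 0.05). Fold changes on this scale understate those of low genes. Residual degrees of freedom were 3 and prior degrees 44.1, so each error is drawn mostly from genes at a similar level. The test was tested on simulated data.

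Named members were the 4 most abundant and the 4 with the highest and lowest change per subunit at a mean of at least 5 TPM, and 8 fixed genes (Mrpl12, Mrpl58, Mrps12, Mrps18a, Mrps18b, Mrps18c, Mrps30, Mrps36). Other members given with values, such as Mrpl24 and Mrpl20, and the neighbouring genes were picked after their values were seen. Each pathway list gave its largest called change in each direction. Coordinates are from GENCODE M21 (GRCm38), promoters from RefSeq (GRCm38.p6). Alternatives were 6 scalings, pseudocounts, filters, thresholds, a replicate block and leaving out each library. The other marker lists gave 2 rises and 1 fall of 5 tested genes for B cells, 2 falls of 3 for NK cells, 1 fall of 2 for CD8 T cells, 3 rises of 4 for endothelium, 2 rises and 1 fall of 3 for erythroid cells and no call of 4 for fibroblasts. In neutrophils 3 of 4 tested genes rose and in dendritic cells 2 of 5, and no epithelial or MC38 marker passed the filter.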

Additional observations from a re-analysis of the deposited data

How the results depend on the processing

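The counts and medians of both subunits depend mostly on the scaling, given here as large then small subunit. With equal listed totals 5 and 1 genes rose and 13 and 13 fell, with median log2 changes of -0.25 and -0.38. With equal upper quartiles 6 and 3 rose and 11 and 10 fell (-0.14 and -0.28), beside 23.2% and 49.3% of all genes. With the 20 most abundant genes left out 5 and 2 rose and 23 and 16 fell (-0.32 and -0.46), beside 19.8% and 56.9%. On T cell identity genes 49 and 29 rose and 0 and 0 fell (2.65 and 2.46), beside 95.7% and 0.779%. On the 78 genes themselves 13 and 5 rose and 6 and 6 fell (0.11 and -0.033). With median ratios 25 and 10 rose and 1 and 2 fell, beside 37.3% and 21.1%. Among the named genes the scaling also turned the sign. With equal totals this held for Mrpl12 (-0.41), Mrps12 (-0.43), Mrpl30 (-0.047), Mrps18a (-0.023), Mrps30 (-0.28) and Mrps33 (-0.41), with upper quartiles for Mrpl12 (-0.32), Mrps12 (-0.32), Mrps30 (-0.18) and Mrps33 (-0.30), and on the 78 genes for Mrpl12 (-0.096), Mrps12 (-0.072) and Mrps33 (-0.033). Without the 20 genes it held for Mrpl12 (-0.47), Mrps12 (-0.50), Mrpl30 (-0.13), Mrps18a (-0.10), Mrps22 (-0.011), Mrps30 (-0.35) and Mrps33 (-0.49). On T cell genes it held for Mrpl38 (1.90), Mrpl45 (1.67), Mrpl48 (1.79), Mrpl58 (1.81), Mrps5 (1.48), Mrps9 (1.91), Mrps18b (1.90), Mrps26 (1.77) and Mrps35 (1.54). These follow from the constant by which each scaling multiplies a library. A pseudocount of 0.1 or 10 left 1 small subunit gene that fell, and 10 gave medians of 0.35 and 0.24. Without a filter 0 small subunit genes fell, and at a mean of at least 5 TPM 1 large subunit gene fell, Mrpl45. At an adjusted p below 0.01, 24 large and 9 small subunit genes rose and 0 fell. Against a change of 1.5-fold 8 and 3 rose and 0 fell. The shares of all genes called are not given for the pseudocounts, filters, thresholds, replicate block or fits with a library left out. Counts at these settings therefore cannot be set against a background. Leaving out each library gave 19 to 35 large subunit rises with 0 to 2 falls, 7 to 17 small subunit rises with 0 to 2 falls, and medians of 0.53 to 0.68 and 0.39 to 0.52. With tumor replicate 2 or 3 left out, the spread of the single tumor library is taken from the spleen. With the replicate block, 24 large and 9 small subunit genes rose and 0 and 2 fell. Among the named genes it ended the calls of Mrps30 (adjusted p = 0.093) and Mrps33 (adjusted p = 0.21). The block left 1 residual degree of freedom and infinite prior degrees. Whether replicates 2 and 3 share more than a number is not stated. Their deviations correlated at 0.20 and 0.066, and those of spleen replicate 1 and tumor replicate 3, with unlike numbers, at 0.19. With 2 tumor libraries, whose deviations mirror each other, these values cannot decide it. All 33 rises under the block were among the 46 as deposited. Limits are 2 tumor libraries, an unknown depth, and levels that for 19 members never passed the olfactory background.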
